A study of Homo sapiens with 6 samples.

Results

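SNARE proteins are the membrane-anchored machines that fuse transport vesicles with their target membranes. The 40 genes described here comprise 38 SNARE or SNARE-like genes of the secretory and endosomal pathway and 2 genes of the machinery that takes spent SNARE bundles apart, NSF and NAPA. They were chosen by gene symbol, and each of the 40 symbols was found on 1 row of a table of 58825 genes. Each was assigned to 1 main site of action. This gave 12 genes of transport between the endoplasmic reticulum (ER) and the Golgi, 13 endosomal genes, 13 plasma membrane genes and the 2 disassembly genes. RNA was measured in PANC-1 cells, an established line from a human pancreatic ductal carcinoma. In 1 group (CMR, 3 libraries) the cells had received 8 µM of a compound labelled CMR for 48 h. The other group (control, 3 libraries) is labelled only as control, and all cells were grown in the same serum-containing medium. The treatment protocol is 1 text shared by both groups, so the groups rest on the treatment label of each sample. What the control cells were given and what CMR stands for are not given in the sources used here.

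A SNARE bundle forms when an R-SNARE, usually on the vesicle, zips up with a Qa, a Qb and a Qc helix on the target membrane. The letters name the residue, arginine or glutamine, at the centre of the bundle. Most syntaxins supply the Qa helix, some a Qc helix, and SNAP-type proteins carry a Qb and a Qc helix in the same chain. After fusion, NSF, an ATPase, and its adaptor alpha-SNAP, encoded by NAPA, pull the bundle apart so that its parts can be used again. In cells, the ER-Golgi bundles carry newly made protein forward and return escaped ER proteins. The endosomal bundles serve lysosomes, autophagosomes and recycling to the Golgi, and the plasma membrane bundles serve exocytosis.

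Library totals ran from 51147268 to 70129221 counts, and log expression correlated across genes with r from 0.966 to 0.971 within groups and 0.914 to 0.939 between groups. Whether the 3 libraries per group derive from separate cultures is not stated, so every p-value reflects the spread among these libraries alone, and that spread may be technical. The 4 epithelial keratin markers were all detected, with summed levels of 2684 to 3092 CPM (counts scaled to library size) in control and 656.4 to 1205 with CMR. All 4 were called lower with CMR, by edgeR adjusted p from 0.000152 (KRT19) to 0.0474 (KRT7). VIM, a mesenchymal gene that this line also expresses, was at 3713 to 3786 CPM in control and 1209 to 1627 with CMR and was called lower too (edgeR adjusted p = 0.000183). The part of these falls in the results below was not tested. Markers of leukocytes, endothelium, adipocytes and pancreatic acinar and endocrine cells were at or near 0 with the exception of CD68, a lysosomal protein gene that many cell types express. The summed level of the 4 adipocyte markers reached at most 0.397 CPM, and the 3 endocrine markers were at 0 in all libraries. PRSS1, an acinar marker, was called higher with CMR at a very low level (edgeR adjusted p = 0.0109). It had 17, 15 and 14 counts with CMR, at most 0.257 CPM, and 0 in each control library.

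Genes of the ER-Golgi SNAREs were higher in CMR-treated cells almost throughout, whereas endosomal and plasma membrane members went both ways. Of the 39 members with enough counts to be tested, 20 were called higher and 4 lower at an adjusted p under 0.05 (quasi-likelihood test of edgeR, with p-values adjusted by Benjamini and Hochberg's method over 19200 genes). Across all genes tested 38.6% were called, 20.5% higher and 18.1% lower (3928 and 3476 genes; 3250 and 4324 with upper-quartile scaling). Most members had a mean of at least 5 FPKM, a measure of level explained below. Of 6477 tested genes at that level, 2107 were called higher and 1563 lower in the same fit. Both are larger shares than among all genes tested, and the median log2 fold change there was 0.06. The rise was at least 2-fold in 13 members and the fall at least 2-fold in 2, against 9.87% and 8.55% of all genes. The CPM ranges of the groups did not overlap in 30 members, 22 with CMR higher and 8 with CMR lower, against 53.9% of all genes (27.3% and 26.6%). The members' median log2 fold change was 0.49, and that of all genes tested was -0.01. By site, 10 of 12 ER-Golgi members rose and 0 fell, with a median of 1.20. Of 13 endosomal members 5 rose and 2 fell (median 0.01), and of 12 tested plasma membrane members 4 rose and 2 fell (median 0.01). The plasma membrane counts were 4 higher and 5 lower with upper-quartile scaling, and 2 higher and 2 lower without control replicate 3. Differences between the sites were not tested. In RNA from bulk cultures, a change in the mix of cells and a change of RNA per cell cannot be told apart.

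**Figure D1:**
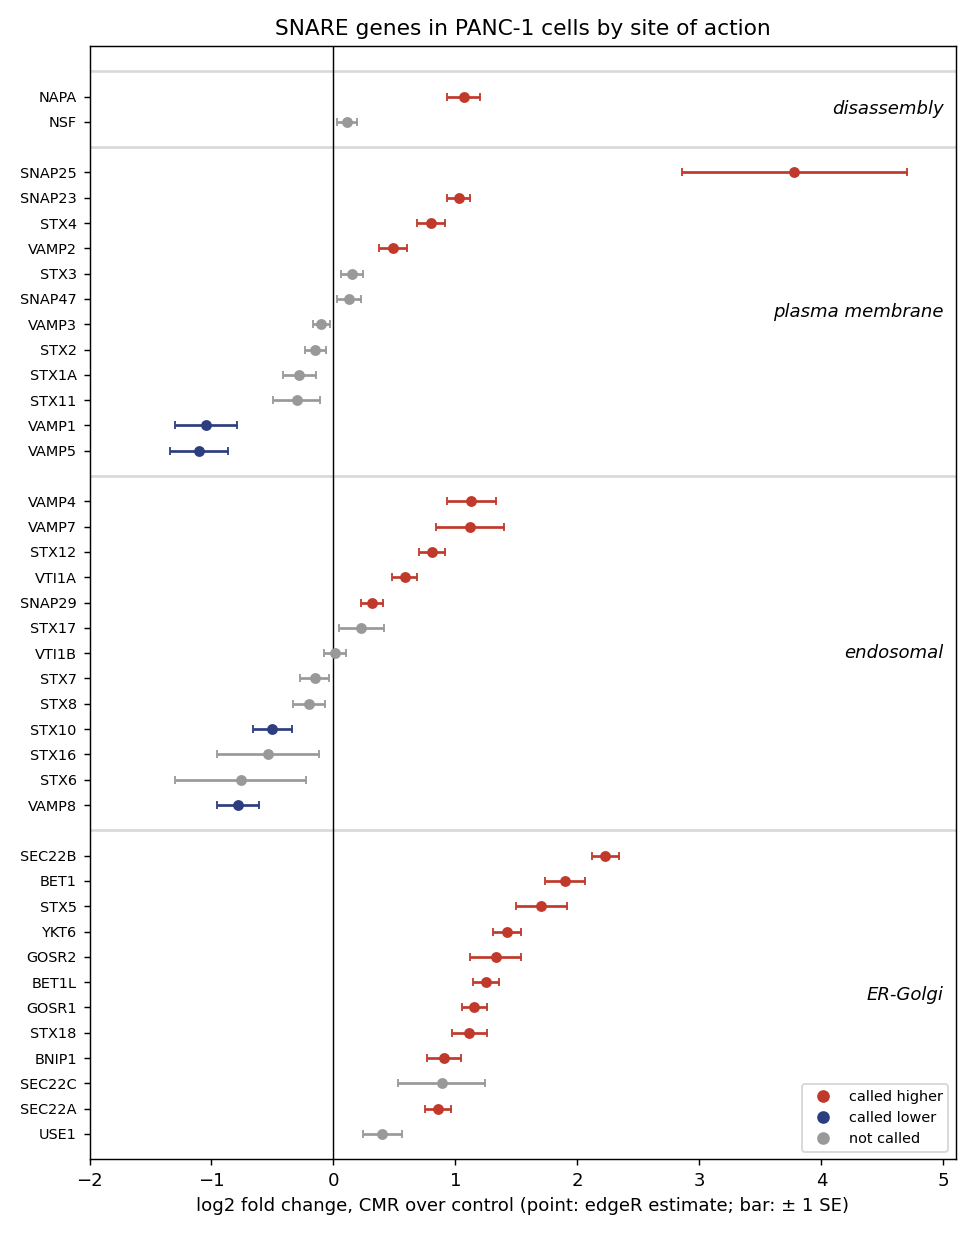
Log2 fold change of CMR over control for the 39 tested genes, grouped by site of action; points are edgeR estimates and bars are 1 standard error. The ER-Golgi genes lie from 0.40 (USE1) to 2.23 (SEC22B), all to the right of 0, while the endosomal and plasma membrane genes lie on both sides.

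The promoters of the members shared few sequence matches to known stress elements. RefSeq start sites of build GRCh38.p14 were found for 36 of the 40 genes, all but SNAP25, USE1, BET1L and STX17, and the 250 bases before each start were searched on both strands. The letters TGACGTGG, the element bound by ATF6 and XBP1 in ER stress, occurred in 1 member, STX5, and in 0.612% of 35116 promoters. The letters CACGTG, the palindromic E-box core, occurred in 6 members (16.7%) and in 6.34% of all promoters. The members' promoters were richer in G and C (median 64.8%) than all promoters (58.0%), and the part of this in the shares of any motif was not tested. These 6 were BNIP1, GOSR2, NAPA and SNAP29, which were called higher, and STX2 and STX6, which were not called. TGACNNNGC, the core of the antioxidant response element, occurred in 5 members (13.9%: STX4, STX5, STX11, VAMP1 and VAMP3) against 10.9% of all promoters, and 1 of its matches in STX5 overlaps the TGACGTGG match. TGATGCAA and the looser TGATGNAA, which contains it, both C/EBP-ATF elements, were in 0 of 36, as were TGACTCA, the AP-1 element, and CCAAT followed after 9 bases by CCACG, the paired ER stress element. Their shares of all promoters were 0.772%, 3.14%, 4.2% and 0.074%. A match is a run of letters, and binding was not measured. The windows of the STX5 match and of the E-box matches in called ER-Golgi and disassembly genes are shown because these genes were among those that rose. They read 5′ to 3′ on the strand of the gene, with the match in capitals.
STX5, chr11:62832052-62832079, minus strand, 9 to 16 bases before the start: gttacgtgtaggTGACGTGGccgcttcc
GOSR2, chr17:46922955-46922984, plus strand, 188 to 193 bases before the start: cgccttgcccttCACGTGaagccgagcctg
BNIP1, chr5:173144371-173144400, plus strand, 143 to 148 bases before the start: ctgatttccctaCACGTGtcagggaaagtc
NAPA, chr19:47515071-47515100, minus strand, 20 to 25 bases before the start: gccagcgctagtCACGTGgttcctggccgc
NAPA, chr19:47515260-47515289, minus strand, 209 to 214 bases before the start: cttccacagggtCACGTGggaggtgaggta

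The bundle that fuses ER-derived vesicles on the way to the Golgi is made of STX5 (Qa), GOSR2 (Qb, membrin), BET1 (Qc) and SEC22B (R), and all 4 genes rose. SEC22B (ENSG00000265808, chromosome 1, 120150898 to 120176515, minus strand) had the largest change among the ER-Golgi genes. Its level was 46.5, 50.0 and 58.7 FPKM with CMR and 11.3, 11.9 and 11.7 FPKM in control (log2 fold change 2.23 ± 0.11 SE, n = 3 per group, edgeR adjusted p = 4.89e-05). Every CMR library stood above every control library by a wide margin, and the control libraries were close together. FPKM divides the fragments of a gene by its length and by the size of the library. A comparison of levels between different genes therefore depends on the gene lengths used. Fold changes and tests here come from counts. A like-named copy in the table, SEC22B4P, had 0.380% of the SEC22B count. BET1 had 6.60, 8.37 and 9.20 FPKM with CMR and 2.45, 2.11 and 2.29 in control (log2 fold change 1.90 ± 0.16, edgeR adjusted p = 0.000246). STX5, the syntaxin shared by this bundle and the Golgi one, had 21.0, 28.99 and 36.7 FPKM with CMR and 9.69, 9.51 and 8.95 in control (log2 fold change 1.70 ± 0.21, edgeR adjusted p = 0.000931). The CMR libraries of STX5 were spread over a wider range than the control libraries, with no overlap between groups. GOSR2 had the lowest FPKM of the 4 genes, at 2.95, 3.34 and 3.80 with CMR and 1.09, 1.83 and 1.305 in control (log2 fold change 1.33 ± 0.21, edgeR adjusted p = 0.00253). In CPM, which takes no account of gene length, its means were 59.4 with CMR and 23.6 in control. These were above the 51.8 and 13.9 of BET1.

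The bundle that acts between Golgi cisternae pairs STX5 with GOSR1 (Qb, GS28), BET1L (Qc, GS15) and YKT6 (R), and these genes rose as well. YKT6 carries lipid anchors in place of a membrane-spanning segment and also serves autophagosomes and endosomes. It was at 159, 158 and 198 FPKM with CMR and 68.7, 69.9 and 64.5 in control (log2 fold change 1.42 ± 0.11, edgeR adjusted p = 0.000197). By mean FPKM it was the first of all 40 genes with CMR and the second in control after VAMP8. In control replicate 3 YKT6 stood above VAMP8, which had 60.9 FPKM. In CPM its control mean was above that of VAMP8 (291 and 72.2). BET1L had 41.3, 35.1 and 38.2 FPKM with CMR against 17.9, 14.96 and 17.9 in control, a 2.38-fold rise (edgeR adjusted p = 0.000246). GOSR1 had 21.1, 22.0 and 25.3 FPKM with CMR against 11.03, 11.1 and 10.3 in control, a 2.22-fold rise (edgeR adjusted p = 0.000277). For these 3 genes the lowest CMR library stood well above the highest control library.

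The bundle for the return path, from Golgi to ER, is made of STX18 (Qa), BNIP1 (Qb, SEC20), USE1 (Qc) and SEC22B, and 3 of its 4 genes rose. STX18 had 6.40, 7.00 and 8.58 FPKM with CMR and 3.76, 3.41 and 3.53 in control (log2 fold change 1.12 ± 0.14, edgeR adjusted p = 0.00114). BNIP1 had 10.8, 11.5 and 11.8 FPKM with CMR and 6.82, 5.42 and 6.97 in control, a 1.87-fold rise (edgeR adjusted p = 0.00216). USE1 did not pass the test, with 4.26, 4.09 and 3.70 FPKM against 3.80, 2.90 and 2.94 (log2 fold change 0.40 ± 0.16, edgeR adjusted p = 0.0876). In FPKM 1 CMR library lay within the control range, whereas the CPM ranges of USE1 did not overlap, with CMR higher. The smaller value of USE1 than of its partners was not tested as a difference.

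SEC22A and SEC22C resemble SEC22B in their amino-terminal part but are not established as fusion SNAREs. SEC22A had 10.4, 8.97 and 9.01 FPKM with CMR and 5.09, 5.61 and 5.79 in control, a 1.81-fold rise (edgeR adjusted p = 0.000988). Its span overlaps that of PDIA5, a disulfide isomerase gene on the same strand that had 117% of its mean count and rose as well (log2 fold change 1.16). Whether reads were shared was not tested. SEC22C was split within the CMR group, with 7.22, 6.54 and 2.49 FPKM against 3.02, 3.50 and 2.70 in control. CMR replicate 3 lay below every control library and the other CMR libraries above, and the gene did not pass the test (log2 fold change 0.89 ± 0.36, adjusted p = 0.0898 by edgeR). Without CMR replicate 3 it was called higher (1.22 on the log2 scale, adjusted p = 0.00150 by edgeR), and DESeq2 also called it (adjusted p = 0.0205). SS18L2, on the other strand within its span, held 28.9% as many counts and was not called.

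**Figure D2:**
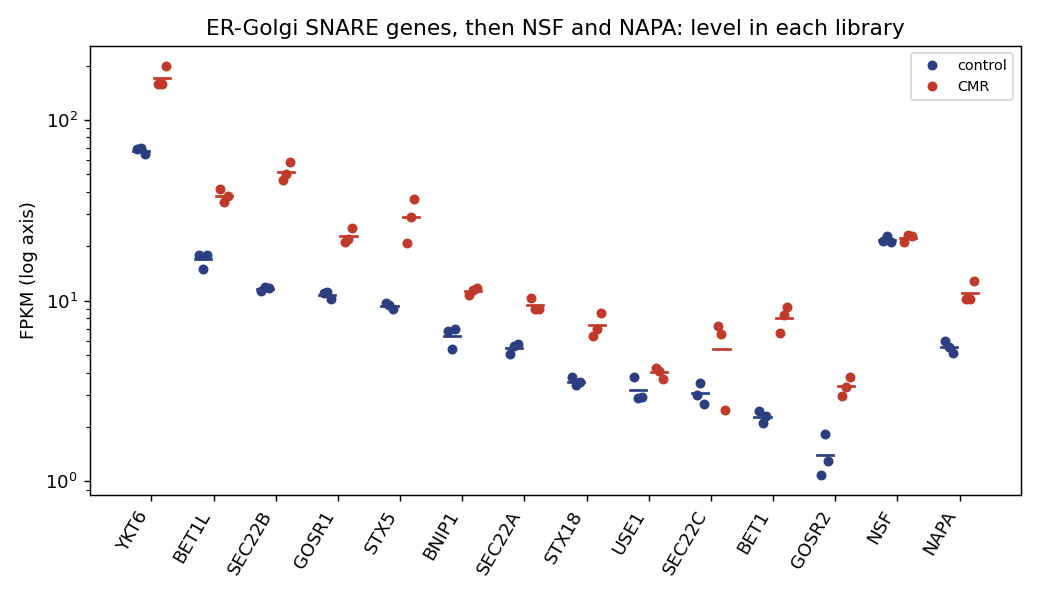
Levels of the 12 ER-Golgi SNARE genes and of NSF and NAPA in each library, in FPKM on a log axis; each point is 1 library and each horizontal line is the mean of 3. The CMR points stand clear of the control points for all ER-Golgi genes but USE1 and SEC22C, and YKT6 is at the top with 158 to 198 FPKM.

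The summed level of the 12 ER-Golgi genes was 337, 344 and 405 FPKM with CMR and 145, 142 and 139 in control. The sum of the 13 endosomal genes was 167, 164 and 182 against 180, 158 and 157 FPKM, and that of the 13 plasma membrane genes was 128, 125 and 126 against 130, 131 and 129 FPKM. The ER-Golgi sums did not overlap between groups, and the endosomal sums did. The plasma membrane sums did not, with CMR lower in every library by a few FPKM. These endosomal and plasma membrane patterns depended on the site assignment. With YKT6 and VAMP3 counted as endosomal and STX17 as ER-Golgi, plasma membrane sums were higher with CMR in every library. They were 73.1, 69.07 and 72.1 FPKM against 66.7, 68.1 and 69.03 in control. The endosomal sums were then 379, 377 and 432 against 310, 290 and 281 FPKM, with no overlap. These sums weigh abundant genes most, YKT6 above all.

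The 2 disassembly genes differed from each other. NAPA had 10.2, 10.2 and 12.8 FPKM with CMR and 6.01, 5.54 and 5.15 in control (log2 fold change 1.07 ± 0.13, edgeR adjusted p = 0.00101). NSF had 21.1, 23.2 and 22.7 FPKM with CMR and 21.5, 22.9 and 21.0 in control (log2 fold change 0.11 ± 0.09, edgeR adjusted p = 0.352). The NSF values of both groups were interleaved. A partial copy, NSFP1, held 22.1% as many counts as NSF, and RPS7P11 on the other strand 20.4%. Whether reads were divided among them was not tested.

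Among endosomal members, the genes that rose were VAMP4, VAMP7, STX12, VTI1A and SNAP29. VAMP4, an R-SNARE of transport from endosomes to the trans-Golgi network, had 4.36, 5.38 and 6.76 FPKM with CMR and 2.86, 2.19 and 2.90 in control (log2 fold change 1.13 ± 0.20, edgeR adjusted p = 0.00452). VAMP7, an R-SNARE of late endosomes and lysosome exocytosis, had 45.4, 54.5 and 74.7 FPKM with CMR and 39.6, 22.0 and 23.5 in control (log2 fold change 1.12 ± 0.28, edgeR adjusted p = 0.0170). Control replicate 1 of VAMP7 lay close to the lowest CMR library, and the call was lost without CMR replicate 3 (edgeR adjusted p = 0.0531), without control replicate 2 (0.0582) and without control replicate 3 (0.0603), the 3 libraries farthest from the other group.

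STX12, also called syntaxin 13, a Qa-SNARE of recycling endosomes, had 16.8, 18.0 and 20.1 FPKM with CMR and 10.96, 10.96 and 11.2 in control (log2 fold change 0.81 ± 0.10, edgeR adjusted p = 0.00114). VTI1A, the Qb-SNARE of the trans-Golgi network, had 8.01, 8.31 and 9.52 FPKM against 6.09, 6.01 and 6.10 (log2 fold change 0.58 ± 0.10, edgeR adjusted p = 0.00405). The control libraries of both genes lay very close together. SNAP29, which joins STX17 in the fusion of autophagosomes with lysosomes, had 12.5, 12.4 and 13.3 FPKM against 11.4, 10.8 and 10.3 (log2 fold change 0.32 ± 0.09, edgeR adjusted p = 0.0293). That call was lost without the replicates CMR 2 (0.0606), CMR 3 (0.0577), control 1 (0.0600), control 2 (0.0936) or control 3 (0.108), so it depended on nearly every library. PI4KA, whose span it overlaps on the other strand, held 115% of its count (log2 fold change 0.09, not called).

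VAMP8 and STX10 were the endosomal genes that fell. VAMP8, an R-SNARE of late endosomes, autophagosomes and secretory granules, had the highest mean FPKM of the members in control, with 74.0, 73.9 and 60.9 FPKM, and had 47.4, 38.4 and 29.5 with CMR (log2 fold change -0.78 ± 0.17, edgeR adjusted p = 0.0106). The groups did not overlap, and its rank by mean FPKM among the 40 genes went from 1 to 5. STX10, a Qc-SNARE of the trans-Golgi network, had 3.44, 2.70 and 2.59 FPKM with CMR and 4.54, 4.32 and 4.15 in control (log2 fold change -0.50 ± 0.16, edgeR adjusted p = 0.0437). This call, near the threshold, was lost without each of the replicates CMR 2 (0.124), CMR 3 (0.107), control 1 (0.132), control 2 (0.108) and control 3 (0.0885).

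The other endosomal members were not called. The core of the late endosomal bundle, STX7 (Qa), VTI1B (Qb) and STX8 (Qc), had log2 fold changes of -0.15, 0.01 and -0.20, with edgeR adjusted p of 0.343, 0.940 and 0.278. VTI1B had 10.4, 9.73 and 11.1 FPKM with CMR and 11.1, 10.9 and 10.7 in control, and the groups overlapped. Its span shares 4624 bases with that of ARG2 on the other strand, which rose (log2 fold change 3.39) and held 18.3% as many counts. The part of that overlap in the VTI1B value was not tested. STX17, the autophagosomal syntaxin, ran from 1.31 to 1.78 FPKM with CMR and from 1.25 to 1.71 in control (log2 fold change 0.23, edgeR adjusted p = 0.380).

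STX6 and STX16 work with VTI1A and VAMP4 at the trans-Golgi network, and their libraries disagreed within groups. STX6 had 5.65, 1.63 and 1.69 FPKM with CMR and 6.31, 2.91 and 6.68 in control, so that CMR replicate 1 looked like the higher control libraries and control replicate 2 lay between. The gene did not pass the test (log2 fold change -0.76 ± 0.53, adjusted p = 0.308 by edgeR), but was called lower without CMR replicate 1 (log2 fold change -1.59, edgeR adjusted p = 0.0192). STX16 had 4.58, 3.74 and 4.38 FPKM with CMR and 3.75, 4.12 and 11.5 in control, with control replicate 3 far above all others (log2 fold change -0.54 ± 0.42, edgeR adjusted p = 0.360). Without that library the log2 fold change was 0.19 (edgeR adjusted p = 0.400). A readthrough gene on the same strand, STX16-NPEPL1, held 15.9% as many counts as STX16, and whether reads were divided between the 2 genes was not tested.

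**Figure D3:**
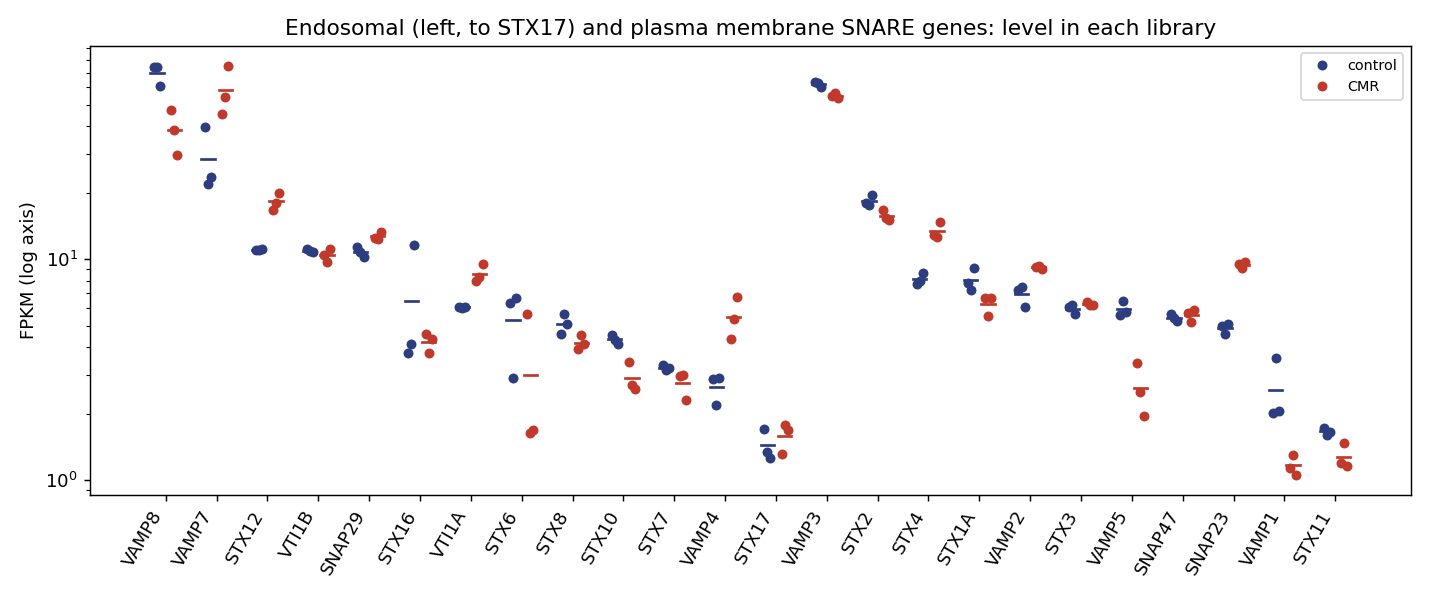
Levels of the endosomal genes (from VAMP8 to STX17) and of the plasma membrane genes (from VAMP3 to STX11) in each library, in FPKM on a log axis; points are libraries and lines are means of 3. SNAP25 and STX19, at under 1 FPKM in every library, are left out. The scattered libraries of STX6 and STX16 and the separated groups of VAMP8, VAMP5 and SNAP23 can be seen.

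At the plasma membrane, the genes of the widely expressed exocytic pair STX4 (Qa) and SNAP23 (Qb and Qc) rose. SNAP23 had 9.53, 9.17 and 9.68 FPKM with CMR and 4.99, 4.59 and 5.095 in control (log2 fold change 1.03 ± 0.09, edgeR adjusted p = 0.000320). LRRC57, which overlaps it on the other strand, held 65.2% as many counts and was not called (log2 fold change -0.17). STX4 had 12.9, 12.6 and 14.8 FPKM with CMR and 7.69, 7.99 and 8.69 in control (log2 fold change 0.80 ± 0.11, edgeR adjusted p = 0.00160). Both genes showed groups that stood clearly apart. VAMP2, an R-SNARE that works with this pair and is the synaptic vesicle R-SNARE in neurons, had 9.25, 9.37 and 9.003 FPKM against 7.24, 7.46 and 6.10 (log2 fold change 0.49 ± 0.11, edgeR adjusted p = 0.0139), and lost its call without control replicate 3 (0.0503).

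VAMP3, the R-SNARE of recycling endosomes that also pairs with STX4 and SNAP23, did not pass the test. It was abundant, with 55.0, 56.3 and 53.7 FPKM with CMR and 63.3, 63.1 and 60.03 in control (log2 fold change -0.10 ± 0.07, edgeR adjusted p = 0.317). In FPKM the groups did not overlap, with CMR lower.

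SNAP25, the partner of STX1A and VAMP2 in neurons and endocrine cells, rose from a very low level. Its counts were 45, 119 and 145 with CMR and 11, 0 and 8 in control, or at most 0.521 FPKM (log2 fold change 3.78 ± 0.92, edgeR adjusted p = 0.0158). The size of that fold rests on few control counts, and the call was lost with limma-voom (adjusted p = 0.0584), without CMR replicate 3 (0.0564) or without control replicate 3 (0.0517). STX1A, its Qa partner, had 6.70, 5.53 and 6.66 FPKM with CMR and 7.81, 7.29 and 9.12 in control, and did not pass the test (log2 fold change -0.28, adjusted p = 0.146 by edgeR). It overlaps BUD23 on the other strand, which had 262% of its count.

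VAMP5 and VAMP1 fell. VAMP5, an R-SNARE known from muscle and the cell surface, had 3.38, 2.50 and 1.96 FPKM with CMR and 5.58, 6.45 and 5.75 in control (log2 fold change -1.10 ± 0.23, edgeR adjusted p = 0.00905). VAMP5 and VAMP8 lie side by side on the plus strand of chromosome 2, with 2399 bases between their spans, and both fell. This was the closest pair of members in the genome. VAMP1, a vesicle R-SNARE best known from neurons, had 1.13, 1.304 and 1.06 FPKM with CMR and 2.02, 3.56 and 2.06 in control (log2 fold change -1.05 ± 0.26, edgeR adjusted p = 0.0159). That call did not hold when CMR replicate 3 was left out (0.0542). TAPBPL, on the other strand, shares 86 bases with it, held 24.2% as many counts and was not called.

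The remaining plasma membrane genes were not called. STX2, STX3 and STX11, which are Qa-SNAREs of epithelial or blood cells, and SNAP47 had log2 fold changes of -0.15, 0.15, -0.30 and 0.13, with edgeR adjusted p from 0.214 to 0.360. SNAP47 overlaps JMJD4 on the other strand, which held 43.9% as many counts, and STX3 overlaps the pseudogene FABP5P7, with 10.3%. STX19 was not tested, with 0, 3 and 2 counts with CMR and 0, 0 and 4 in control, where a count of 0 allows up to 3 counts.

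The shift among members changed the make-up of each class of SNARE. YKT6 held 43.5% ± 1.93 (SD, n = 3) of the summed FPKM of the 9 R-SNARE genes with CMR and 26.3% ± 1.16 in control. SEC22B held 13.1% ± 0.517 with CMR and 4.55% ± 0.420 in control. VAMP8 went the other way, with 9.93% ± 2.99 against 27.0% ± 1.36, and VAMP3 had 14.1% ± 1.45 against 24.2% ± 1.11. The libraries of the groups did not overlap for any of these 4 shares. Among the R-SNARE genes only the shares of VAMP4 and VAMP7 overlapped, so the lack of overlap was not particular to these 4 genes. A share can move because other genes of the class moved, as for VAMP3, and its size depends on the gene lengths used for FPKM. Neither VAMP3 nor STX2, given next, was called in the test of counts. Among the 12 Qa genes, STX5 held 26.9% ± 4.86 of the sum with CMR and 12.2% ± 1.40 in control, and STX2 held 14.9% ± 2.21 and 23.8% ± 0.480. Among the 6 Qc genes, BET1L held 63.3% ± 0.964 with CMR and 45.5% ± 0.314 in control. Lack of overlap was not particular to these genes either. Among the Qa genes only the shares of STX17 and STX19 overlapped, and among the Qc genes none did. The share of USE1 was lower with CMR (6.67% ± 0.521 against 8.65% ± 1.05), although its CPM was higher in every CMR library.

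**Figure D4:**
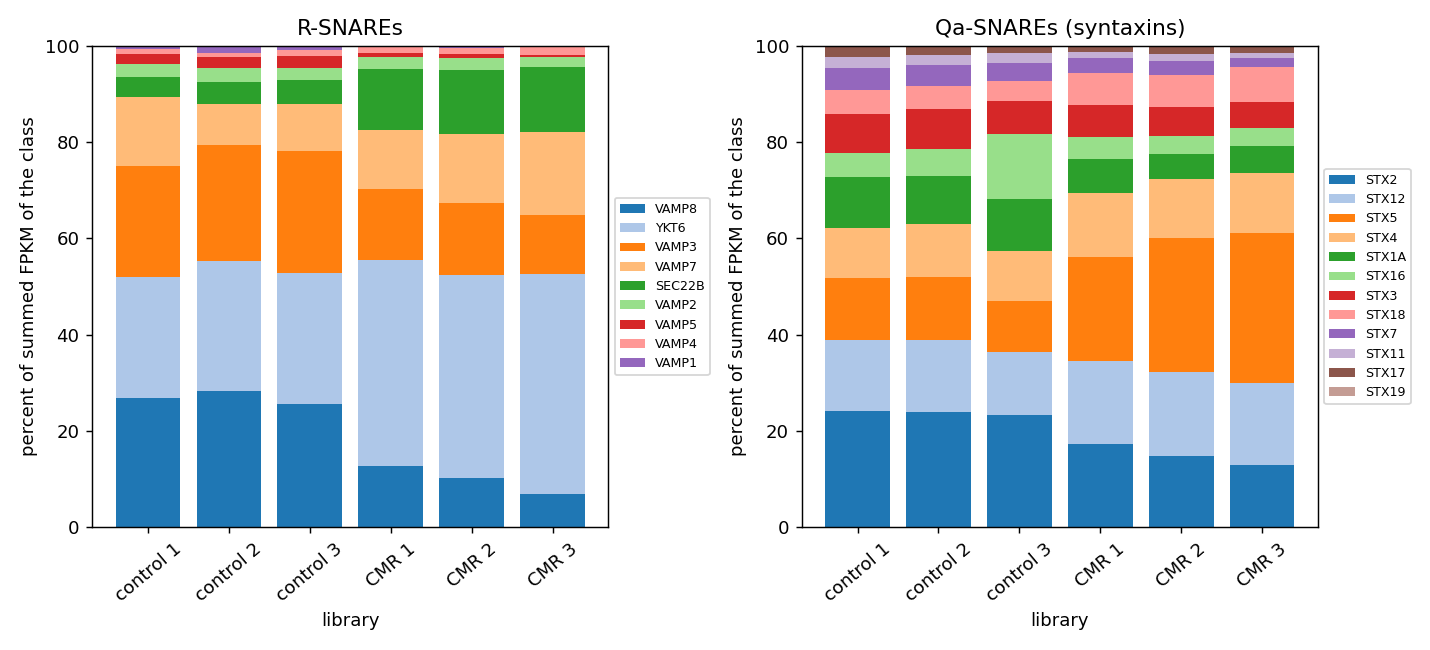
Share of each gene in the summed FPKM of the R-SNARE genes (left) and of the Qa-SNARE genes (right), in percent, for each of the 6 libraries. YKT6 and SEC22B take a larger part of the R-SNARE sum in all 3 CMR libraries, VAMP8 and VAMP3 a smaller part, and STX5 a larger part of the Qa sum.

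Ratios between genes with related roles were compared within each library for 8 pairs, with exact two-sided permutation tests of 3 against 3 libraries, where 0.1 is the smallest p possible. In 6 of the 8 pairs the groups did not overlap (exact p = 0.1, Benjamini-Hochberg adjusted 0.133), which this design cannot take past the threshold. Each of these pairs holds at least 1 gene called above, so its ratio is not independent of that call. A share of non-overlapping ratios over all gene pairs was not computed. For single genes the CPM ranges did not overlap in 53.9%. The FPKM ratio of VAMP3 to VAMP2 was 5.97 ± 0.0340 (SD, n = 3) with CMR and 9.02 ± 0.734 in control. That of STX12 to STX7 was 6.81 ± 1.67 and 3.42 ± 0.0952, and that of SNAP29 to SNAP23 was 1.35 ± 0.0337 and 2.21 ± 0.174. Each of these pairs holds at least 1 called gene, and the ratios restate such calls in part. VTI1B to VTI1A gave 1.21 ± 0.0792 and 1.80 ± 0.0350, BET1 to BET1L 0.213 ± 0.0460 and 0.135 ± 0.00681, and SEC22B to SEC22C 12.5 ± 9.54 and 3.84 ± 0.478. The last has a wide error because of the low SEC22C value in CMR replicate 3. Ratios of GOSR2 to GOSR1 and of STX6 to STX10 overlapped between groups (exact permutation p = 0.4 and 0.6). The size of an FPKM ratio depends on the gene lengths used. In CPM, which takes no account of length, STX7 was above STX12 in control (means 61.3 and 48.6). The difference between groups hardly depended on the unit. For the log2 ratio of STX12 to STX7 it was 0.966 from FPKM and 0.965 from CPM.

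CMR replicate 3 had the highest level among the CMR libraries in 17 of the 20 members that rose, and in 8 of the 10 ER-Golgi ones. Across all genes called higher this library was the highest in 68.3%. Without it, the count of ER-Golgi genes called higher was 11, with SEC22C added, and that of all members called higher was 18.

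Proteins that guide or tether SNAREs were examined as 62 genes in 7 lists. Of 55 tested, 26 were called higher and 5 lower, against the 20.5% and 18.1% of all genes given above, with a median log2 fold change of 0.29. The partners of the ER-Golgi SNAREs were among those that rose. All 3 genes of the Dsl1 tether, which works with the STX18 bundle at the ER, rose. ZW10 had 44.7, 51.3 and 60.1 FPKM with CMR and 24.5, 28.6 and 27.5 in control (log2 fold change 1.03 ± 0.14, edgeR adjusted p = 0.00120). RINT1 rose by 0.92 ± 0.15 on the log2 scale (0.00280), and NBAS by 0.76 ± 0.09 (0.000840).

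Of the 8 genes of the Sec1/Munc18 family, which clasp syntaxins and help bundles form, 4 rose and 0 fell. SCFD2 rose by 1.40 ± 0.17 on the log2 scale (adjusted p = 0.00101, edgeR) and SCFD1, the partner of STX5, by 0.82 ± 0.11 (0.00123). The other 2 were VPS33A and VPS45, the partners of the late endosomal and trans-Golgi bundles. STXBP2 and STXBP3, partners of plasma membrane syntaxins, were not called, with log2 fold changes of 0.25 and 0.11. Of 11 tested cofactors 6 rose and 1 fell. NAPG, encoding gamma-SNAP, rose with NAPA (log2 fold change 1.08 ± 0.15, edgeR adjusted p = 0.00139). The largest changes in that list were in scarce genes, UNC13A (log2 fold change 1.74 ± 0.37, edgeR adjusted p = 0.00906) and STXBP5L (-2.05 ± 0.60, 0.0313), both at most 0.292 FPKM.

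HOPS and CORVET genes, which tether late and early endosomes, rose in 4 of 7 cases and fell in 1. VPS39 (log2 fold change 0.87 ± 0.13, edgeR adjusted p = 0.00230) and VPS11 (0.76 ± 0.10, 0.00117) had the largest changes in that list, and the gene that fell was TGFBRAP1 (-0.72), a CORVET subunit. GARP and EARP genes, which tether vesicles at the trans-Golgi network and recycling endosomes, rose in 2 of 5 cases and fell in 0. These were VPS53 (log2 fold change 1.20 ± 0.15, edgeR adjusted p = 0.000918) and VPS51 (0.52 ± 0.11, 0.00934). Exocyst genes, which tether vesicles to the plasma membrane, rose in 4 of 9 cases and fell in 1. EXOC8 had the largest rise (log2 fold change 0.91 ± 0.15, edgeR adjusted p = 0.00313), and EXOC6 fell (-0.63 ± 0.15, 0.0155). Synaptotagmins, a family that includes calcium sensors of exocytosis, were tested in 12 of 17 cases, with 3 higher and 2 lower. SYT4 had 27, 60 and 64 counts with CMR and 0 in each control library (edgeR adjusted p = 0.00282), at least 43.1-fold higher when the 3 control libraries together are set to a floor of 3 counts. SYT8 had 13, 7 and 4 counts with CMR and 59, 62 and 40 in control (log2 fold change -2.99 ± 0.57, edgeR adjusted p = 0.00575). Both SYT4 and SYT8 were scarce, at most 0.204 FPKM in any library. At higher levels, SYT9 fell from a mean of 9.91 FPKM in control to 5.01 with CMR (log2 fold change -0.91 ± 0.15, edgeR adjusted p = 0.00283). SYT1 rose from 3.16 to 5.15 FPKM (0.78 ± 0.17, 0.0113).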

How the data were processed

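RNA of 3 CMR and 3 control PANC-1 libraries was poly(A)-selected and read as paired ends, per the labels' protocols. The deposited table holds raw counts and FPKM values per gene; the authors scaled FPKM to gene length and library size, with 0.0001 in place of 0. Strandedness and whether counts were tallied or estimated are not given in the sources used here. HISAT2 2.0, StringTie 1.3.0, Bowtie 0.12.2 and a mouse build, mm8, are named, per the submitters' processing notes, without their roles; gene identifiers are human, and 47519 of 58552 shared genes have the coordinates of GENCODE release 29 (GRCh38), including 23 of 40 members. Gene coordinates are those of the table. Counts were tested with edgeR 4.0.16 (R 4.3.3; TMM, filterByExpr with minimum count 10 and total 15, quasi-likelihood test, Benjamini-Hochberg over 19200 genes), checked on simulated counts. CPM used the same factors. Standard errors were taken from the log2 fold change and its F statistic. All 40 members are named. Full statistics were given at least for the called members with the largest change, up to 4 per site and direction, and for regulators the 2 called genes per list with the largest change; other regulators and other values were chosen after seeing them. The members and lists were chosen with earlier results of these data known. Alternatives were other scalings, DESeq2 1.42.0, limma 3.58.1 on counts or on log2(FPKM + 1) or log2(FPKM + 0.1) for genes of at least 1 FPKM, other filters, a replicate block, each library left out, and another site assignment. Promoters are RefSeq sequences. An overlap with another gene is given beside a described member where its count reached 10% of the member's. Some genes are not reported here. Protein sequences were not used here. Figures used matplotlib 3.10.9.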

Additional observations from a re-analysis of the deposited data

How the results depend on the processing

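All 10 ER-Golgi members called higher kept their call and direction in every alternative that tested them, as did 18 of all 24 called members; the count of members called higher ran from 16 to 21 over the alternatives. With upper-quartile scaling the median of all genes tested shifted by -0.13 (log2), and with that shift included 7 members were called lower in place of 4, and 5 plasma membrane ones in place of 2, with STX1A, STX2 and VAMP3 added; each of these 3 moved by the same amount as the median. Requiring a mean of at least 5 FPKM tests fewer genes, and 6477 of the 19200 genes tested above reach that level. This filter left 2013 genes higher and 1928 lower, and 17 members higher and 1 lower (1 endosomal, 0 plasma membrane). It also left 16 regulators or tethers higher and 3 lower. Without a filter on low counts, 1 endosomal member was called lower. Leaving out 1 library at a time gave 2 to 5 members lower and 16 to 20 higher, 3 to 5 endosomal members higher and 1 to 3 lower, 2 to 4 plasma membrane members higher and 1 to 2 lower, and 21 to 27 regulators or tethers higher and 3 to 6 regulators or tethers lower. With the replicate number as a block, 1 endosomal member was called lower, 19 members were higher and 3 lower, and SNAP29 and STX10 lost their calls (adjusted p = 0.0691 and 0.0595); deviations of same-numbered libraries correlated at only 0.0344 to 0.0520, so the numbers were not taken to pair the samples, although every library correlated best with its own number. SNAP29 also lost its call with library totals alone (0.0626), with upper-quartile scaling (0.137) and without a filter (0.0503), and STX10 without a filter (0.0841). Signs changed only in uncalled genes: STX16 without control replicate 3 (0.19; -0.81 to 0.19 over libraries left out), SNAP47 (-0.0030) and NSF (-0.019) with upper-quartile scaling, and VTI1B with library totals (-0.063), upper-quartile scaling (-0.12), limma on log2(FPKM + 0.1) (-0.069) and log2(FPKM + 1) (-0.064), the 5 FPKM filter (-0.063) and without CMR replicate 3 (-0.053; -0.053 to 0.057 over libraries left out). The cause of these changes was not tested. With YKT6 and VAMP3 counted as endosomal and STX17 as ER-Golgi, 9 of 12 ER-Golgi members were higher.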
